A study of Mus musculus with 24 samples.

Results

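The genes described here are 38 genes of mouse chromosome 18 that start beyond Smad2, toward the far end of the chromosome, in the GRCm38 (mm10) assembly. They were taken from the 102 genes annotated beyond Smad2, among 53379 genes in the deposited tables. They lie between positions 76930017 and 90543267 of chromosome 18, a stretch of 13.6 Mb that opens 0.69 Mb past the start of Smad2 at position 76241580. The list was drawn up with the double knockout levels of this stretch already known, so the 3 double knockout comparisons below are descriptions and carry no test. RNA was measured in 10 libraries, 2 in each of 5 groups, from the mouse embryonic stem cell line E14Tg2a.IV and its knockout derivatives. Wild type (WT) cells were taken as embryonic stem cells at day 0 and as embryoid bodies at day 4 without LIF, the cytokine that holds these cells in the stem cell state. Embryoid bodies labelled Smad2-/-, Smad3-/- and Smad2/3DKO (the double knockout) were taken at day 4 only. Each knockout genotype is a single line number in the file names, so the genotype and its line cannot be told apart. The file names also mark replicate 2 of most groups, but not of all, with a series letter that the labels do not explain. The labels do not state whether replicate libraries are separate cultures, so p-values measure only the spread between these libraries, which may be technical.

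Embryoid bodies are floating clumps of stem cells that leave the pluripotent state and begin to form the early embryonic tissues. Smad2 and Smad3 carry the signal of Nodal and activin receptors to the nucleus, where they act with Smad4. Autosomal genes come as a pair of copies, and for many genes the RNA level follows the number of copies, although feedback can offset it. Stem cell lines in culture are known to gain or lose chromosomes or parts of them. The question put to these genes is whether their levels in the double knockout lie where a change of copy number would put them. With RNA following copies exactly, 1 copy in place of 2 gives a log2 difference of -1, and 3 in place of 2 gives 0.58. DNA copy number was not measured in these libraries.

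The libraries held 35733249 to 53672980 expected counts each. Smad2 RNA stood at 49.9 and 38.3 CPM (counts scaled to library size) in WT at day 4, 19.2 and 20.4 in the Smad2 knockout, 38.3 and 39.3 in the Smad3 knockout and 22.2 and 22.7 in the double knockout. In the WT stem cells it stood at 19.1 and 22 CPM, near the Smad2 and double knockouts. Smad2 RNA thus does not by itself check those labels. Smad3 RNA was 43.4 ± 2.0 CPM in WT and 49.2 ± 0.68 in the libraries labelled Smad3-/- (SD, n = 2), so Smad3 RNA does not check that label, and comparisons with the Smad3 knockout rest on the label. Naive pluripotency markers summed to 2420 to 2550 CPM in the WT stem cells and 536 to 543 in WT embryoid bodies, and primitive streak markers to 6.01 to 7.14 and 390 to 462. Primitive streak markers summed to 6.73 to 8.14 CPM in the double knockout and trophoblast markers to 2620 to 3240. Trophoblast markers summed to 2060 to 3050 CPM in the Smad2 knockout, 756 to 939 in the Smad3 knockout and 450 to 634 in WT at day 4. Extraembryonic endoderm markers summed to 293 to 366 CPM in the double knockout, 70.3 to 73.3 in the Smad2 knockout, 561 to 564 in the Smad3 knockout and 931 to 1020 in WT. In the double knockout 9 of 10 of these genes had a log2 difference below -0.5 from WT, but Lama1 averaged 194 CPM against 151. Krt18 and Krt8 averaged 969 and 1060 CPM there, most of the trophoblast sum. The 14 trophoblast genes had a median log2 difference of 5.06 from WT, with 1 below -0.5. That gene, Eomes, is also on the streak list and averaged 217 CPM in WT. Cdx2 averaged 1.79 CPM in the double knockout and 1.3 in WT. Primitive streak markers summed to 15.7 to 206 CPM in the Smad2 knockout and 197 to 233 in the Smad3 knockout. Y-linked genes summed to 89.4 to 148 CPM in WT, 0 to 0.213 in the Smad2 knockout, 45.3 to 55.2 in the Smad3 knockout and 0.0232 to 2.64 in the double knockout. The day 4 groups thus differed in marker RNA of several cell types and in Y-linked RNA, and the part of either in the levels below was not tested. In bulk RNA, fewer cells of a type and less RNA per cell cannot be told apart.

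Of the 38 members, 32 passed the filter on low counts and 6 did not. The double knockout was lower than WT in most of the 32. Their median log2 difference was -1.07 (quartiles -1.43 and -0.59), a ratio of 0.477, beside a median of -0.05 over all 19470 genes tested. Against the Smad2 knockout the members' median was -0.70 (quartiles -1.63 and -0.21), and against the Smad3 knockout it was -0.89 (quartiles -1.25 and -0.58), beside -0.02 and -0.01 over all genes. These 3 comparisons share the double knockout libraries.

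Both double knockout libraries lay below both WT libraries for 26 of the 32 members, where 31.0% of all genes did. They lay below both Smad2 knockout libraries for 21 members (36.7% of all genes) and below both Smad3 knockout libraries for 28 (34.7% of all genes). For 20 members both double knockout libraries were below all 6 other libraries of day 4 (13.4% of all genes), and for 0 members they were above all 6 (15.0% of all genes). A log2 difference below -0.5 was found in 24 members against WT (26.3% of all genes), 17 against the Smad2 knockout (33.0%) and 26 against the Smad3 knockout (24.3%). The same 16 members were below -0.5 in all 3 comparisons (11.0% of all genes). Because members were chosen on these contrasts, nothing is read from these shares.

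**Figure D1:**
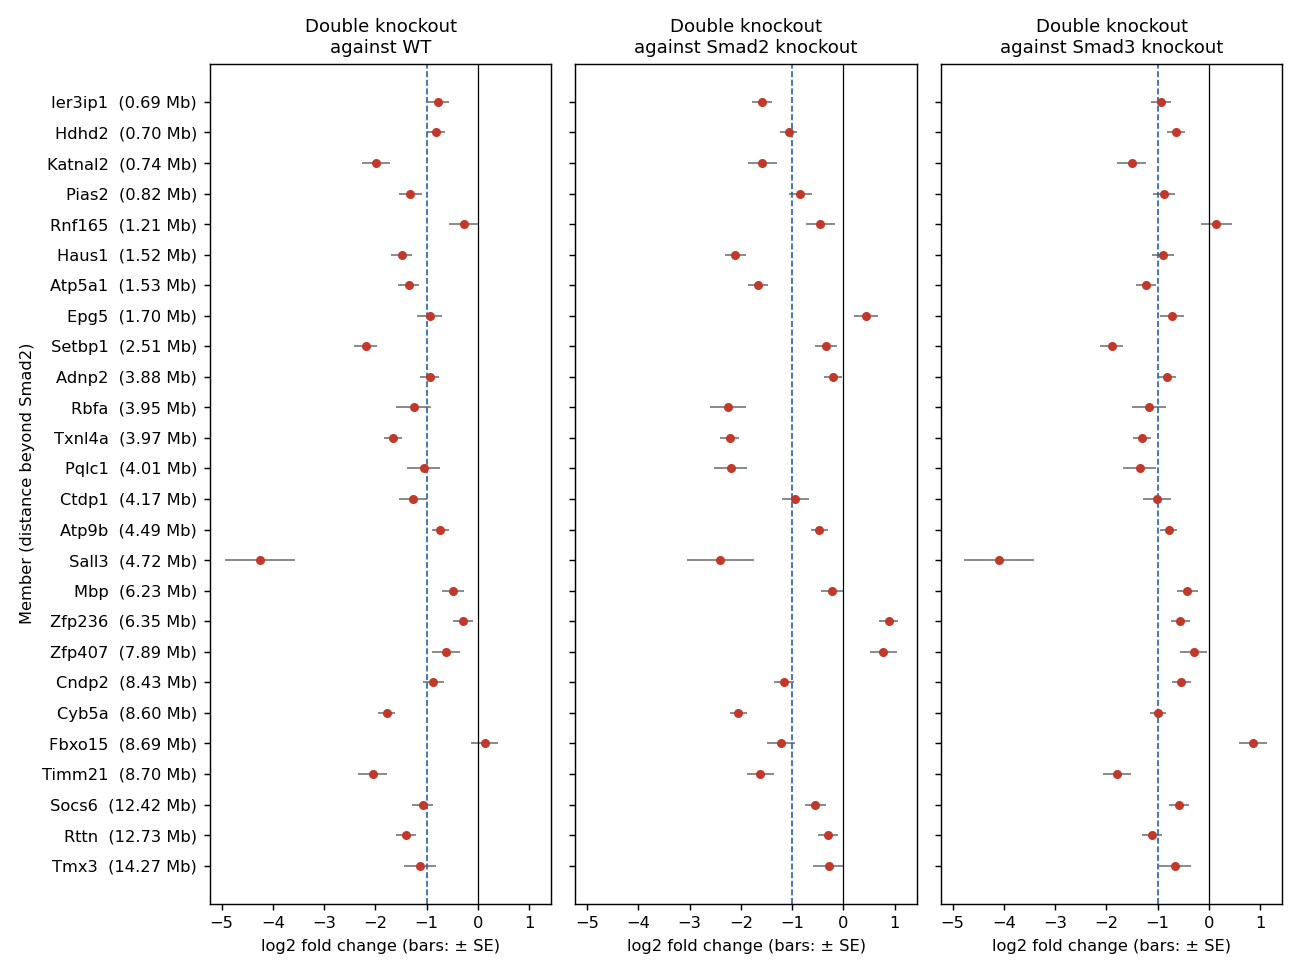
Log2 difference (horizontal axis, bars ± SE) between the double knockout and each other day 4 group for the 26 members with a mean of at least 5 CPM in a WT group, ordered by distance beyond Smad2; the dashed line marks -1. Most points lie near or left of the dashed line against WT and the Smad3 knockout, while the points against the Smad2 knockout spread from -2.40 for Sall3 to 0.88 for Zfp236.

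The 3 members that act in mitochondria were all lower in the double knockout than in every other group. Atp5a1 encodes the alpha subunit of the ATP synthase and had the highest level per length of the members, a mean of 638 TPM (a level scaled by gene length) in WT at day 4. It stood at 867 and 1130 CPM in WT, 1110 and 1390 in the Smad2 knockout, 857 and 988 in the Smad3 knockout and 404 and 381 in the double knockout. The double knockout libraries were the lowest by a wide margin, with a log2 difference of -1.35 ± 0.20 (SE) from WT. Timm21, a subunit of the TIM23 machine that imports proteins into mitochondria, stood at 37.0 and 25.1 CPM in WT, 27.6 and 18.4 in the Smad2 knockout, 27.3 and 24.8 in the Smad3 knockout and 6.46 and 8.54 in the double knockout. Its difference from WT was -2.05 ± 0.28, past the -1 of a single copy. Rbfa, a ribosome binding factor of mitochondria, stood at 10.2 and 22.7 CPM in WT, 30.1 and 35.7 in the Smad2 knockout, 12.9 and 18.2 in the Smad3 knockout and 6.66 and 7.10 in the double knockout. The 2 WT libraries of Rbfa lay far apart, but neither reached down to the double knockout, and the difference was -1.25 ± 0.34.

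All 3 genes of the centrosome and microtubules were lower than in WT. Haus1, a subunit of the augmin complex that branches spindle microtubules, stood at 44.2 and 33.8 CPM in WT, 58.8 and 60.8 in the Smad2 knockout, 26.7 and 25 in the Smad3 knockout and 12.5 and 15.2 in the double knockout. The groups did not overlap, and the double knockout was lowest (-1.49 ± 0.21 from WT, -2.11 ± 0.21 from the Smad2 knockout). Katnal2, a relative of the microtubule-severing enzyme katanin, stood at 9.10 and 8.61 CPM in WT, 8.21 and 5.12 in the Smad2 knockout, 5.95 and 6.71 in the Smad3 knockout and 2.43 and 2.02 in the double knockout. Its difference from WT, -1.99 ± 0.28, came close to that of Timm21. Rttn, the centriole protein rotatin, stood at 34.9 and 26.0 CPM in WT, 12.9 and 15.4 in the Smad2 knockout, 24.6 and 25.1 in the Smad3 knockout and 11.1 and 11.9 in the double knockout. Here the Smad2 knockout was nearly as low as the double knockout, with -0.30 ± 0.20 between them against -1.40 ± 0.20 from WT. Haus1 overlaps Atp5a1 on the opposite strand and Timm21 overlaps Fbxo15 in the same way. Haus1 and Atp5a1 share only positions 77773729 to 77773886, while Timm21 lies inside the span of Fbxo15. No source used here says whether strand was used in counting, so reads from the shared parts may not be told apart. Txnl4a overlaps Gm16286 (a mean of 113 CPM in WT at day 4) on the same strand, where strand would not part them. In all, 14 members overlap another annotated gene.

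The 5 genes of the secretory pathway and of membrane traffic were all lower than in WT, by log2 differences of -1.13 to -0.73. Ier3ip1, a small protein of the endoplasmic reticulum, stood at 36.3 and 32.2 CPM in WT, 62.0 and 59.2 in the Smad2 knockout, 39.5 and 37.3 in the Smad3 knockout and 21.9 and 18.3 in the double knockout. Tmx3, an oxidoreductase of the same compartment and the farthest member at 14.27 Mb, stood at 105 and 49.9 CPM in WT, 44.5 and 41.8 in the Smad2 knockout, 64.8 and 46.4 in the Smad3 knockout and 36.4 and 34 in the double knockout. The double knockout was below every other day 4 library in both genes, though for Tmx3 the lowest Smad2 knockout library was close to it. Atp9b, a lipid flippase family member, stood at 34.7 and 40.7 CPM in WT, 31.2 and 31.8 in the Smad2 knockout, 37.0 and 41.5 in the Smad3 knockout and 22.7 in both double knockout libraries. Pqlc1, a PQ-loop membrane protein, stood at 1.69 and 2.76 CPM in WT, 4.16 and 5.65 in the Smad2 knockout, 2.42 and 3.01 in the Smad3 knockout and 0.997 and 1.14 in the double knockout. Both kept the double knockout lowest, at -0.73 ± 0.16 and -1.06 ± 0.32 from WT. Epg5, which tethers autophagosomes to lysosomes, stood at 23.3 and 24.7 CPM in WT, 6.83 and 11.6 in the Smad2 knockout, 21.1 and 20.1 in the Smad3 knockout and 12.9 and 12.2 in the double knockout. Epg5 was thus lower than in WT (-0.94 ± 0.24) and above both Smad2 knockout libraries (0.44 ± 0.24).

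Among genes of transcription, splicing and chromatin, 8 of 10 were below -0.5 against WT, with a median of -1.21. Pias2, a ligase for the small modifier SUMO, stood at 166 and 118 CPM in WT, 86.6 and 117 in the Smad2 knockout, 112 and 97.8 in the Smad3 knockout and 60.2 and 53.2 in the double knockout. Txnl4a, a protein of the U5 small nuclear ribonucleoprotein of the spliceosome, stood at 39.2 and 40.5 CPM in WT, 58.9 and 59.0 in the Smad2 knockout, 32.6 and 30.2 in the Smad3 knockout and 12.6 in both double knockout libraries. Ctdp1, a phosphatase that acts on the tail of RNA polymerase II, stood at 36.2 and 58.7 CPM in WT, 30.6 and 45.6 in the Smad2 knockout, 37.8 and 42.2 in the Smad3 knockout and 19.9 and 19.8 in the double knockout. All 3 were lowest in the double knockout, by -1.32 ± 0.22, -1.66 ± 0.18 and -1.26 ± 0.27 from WT.

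A pair of regulators stood lowest relative to WT among the members of at least 5 CPM. Sall3, a zinc finger protein of the spalt family that is active in early development, stood at 11.6 and 20.5 CPM in WT, 7.23 and 1.71 in the Smad2 knockout, 11.9 and 17.2 in the Smad3 knockout and 1.14 and 0.533 in the double knockout. Setbp1, the SET binding protein, stood at 23.5 and 22.4 CPM in WT, 5.53 and 7.15 in the Smad2 knockout, 19.4 and 18 in the Smad3 knockout and 5.52 and 4.5 in the double knockout. Sall3 was -4.25 ± 0.68 and Setbp1 -2.19 ± 0.22 from WT. For Setbp1 the Smad2 knockout libraries adjoined the double knockout, with nearest values of 5.53 and 5.52 CPM.

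The homeobox and zinc finger proteins did not share one order. Adnp2, a homeobox protein, stood at 73.8 and 76.2 CPM in WT, 41.1 and 48.4 in the Smad2 knockout, 67.9 and 69.6 in the Smad3 knockout and 42.9 and 35.3 in the double knockout. Zfp236 stood at 30.4 and 37.5 CPM in WT, 14.0 and 16.3 in the Smad2 knockout, 39.7 and 42.6 in the Smad3 knockout and 27.8 and 27.9 in the double knockout. Zfp407, a zinc finger protein too, stood at 26.4 and 23.5 CPM in WT, 6.78 and 12.2 in the Smad2 knockout, 19.8 and 20.3 in the Smad3 knockout and 16.6 and 15.9 in the double knockout. Adnp2 overlapped between the Smad2 knockout and the double knockout, whereas Zfp236 and Zfp407 were higher in the double knockout than in the Smad2 knockout, by 0.88 ± 0.19 and 0.78 ± 0.27. From WT their log2 differences were -0.29 ± 0.19 for Zfp236 and -0.62 ± 0.27 for Zfp407.

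The metabolic enzymes were mixed, with 3 of 6 below -0.5 against WT. Cyb5a, cytochrome b5, stood at 86.0 and 76.0 CPM in WT, 100 and 94.4 in the Smad2 knockout, 47.1 and 46.5 in the Smad3 knockout and 22.4 and 24.8 in the double knockout. Its 4 day 4 groups did not overlap, and the double knockout was lowest (-1.78 ± 0.16 from WT, -0.99 ± 0.16 from the Smad3 knockout). Cndp2, a cytosolic dipeptidase, stood at 66.3 and 86.5 CPM in WT, 80.6 and 106 in the Smad2 knockout, 59.4 and 62.0 in the Smad3 knockout and 44.5 and 38.8 in the double knockout. Hdhd2, a hydrolase of the haloacid dehalogenase family, stood at 21 and 19.7 CPM in WT, 22.9 and 25.4 in the Smad2 knockout, 17.7 and 18.2 in the Smad3 knockout and 11.9 and 11.2 in the double knockout. The double knockout lay below all other libraries in both, at -0.87 ± 0.20 and -0.82 ± 0.17 from WT.

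Ubiquitin ligases, signalling genes and Mbp held several exceptions. Socs6, a feedback inhibitor of cytokine and receptor kinase signals, stood at 63.1 and 50.1 CPM in WT, 43.3 and 35.1 in the Smad2 knockout, 43.5 and 37.3 in the Smad3 knockout and 28.8 and 24.8 in the double knockout, the lowest of the day 4 groups (-1.08 ± 0.21 from WT). Fbxo15, an F-box protein known as a marker of embryonic stem cells, stood at 52.9 and 41.4 CPM in WT, 83.6 and 156 in the Smad2 knockout, 29.2 and 27.6 in the Smad3 knockout and 55.1 and 48.1 in the double knockout. Fbxo15 overlapped with WT (0.13 ± 0.27), was below the Smad2 knockout (-1.22 ± 0.27) and was above the Smad3 knockout (0.86 ± 0.27). Naive pluripotency markers summed to 609 to 768 CPM in the double knockout, 551 to 977 in the Smad2 knockout and 292 to 297 in the Smad3 knockout. Their part in the level of Fbxo15 was not tested. Rnf165, a ubiquitin ligase related to Arkadia, stood at 6.81 and 8.15 CPM in WT, 6.20 and 10.8 in the Smad2 knockout, 5 and 6.34 in the Smad3 knockout and 7.02 and 5.43 in the double knockout, which overlapped with each of the other 3 groups. Mbp, the gene of myelin basic protein, stood at 15.0 and 17.0 CPM in WT, 11.5 and 15.0 in the Smad2 knockout, 15.0 and 15.5 in the Smad3 knockout and 12.1 and 10.7 in the double knockout. The double knockout was below WT by less than in most members (-0.49 ± 0.21).

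**Figure D2:**
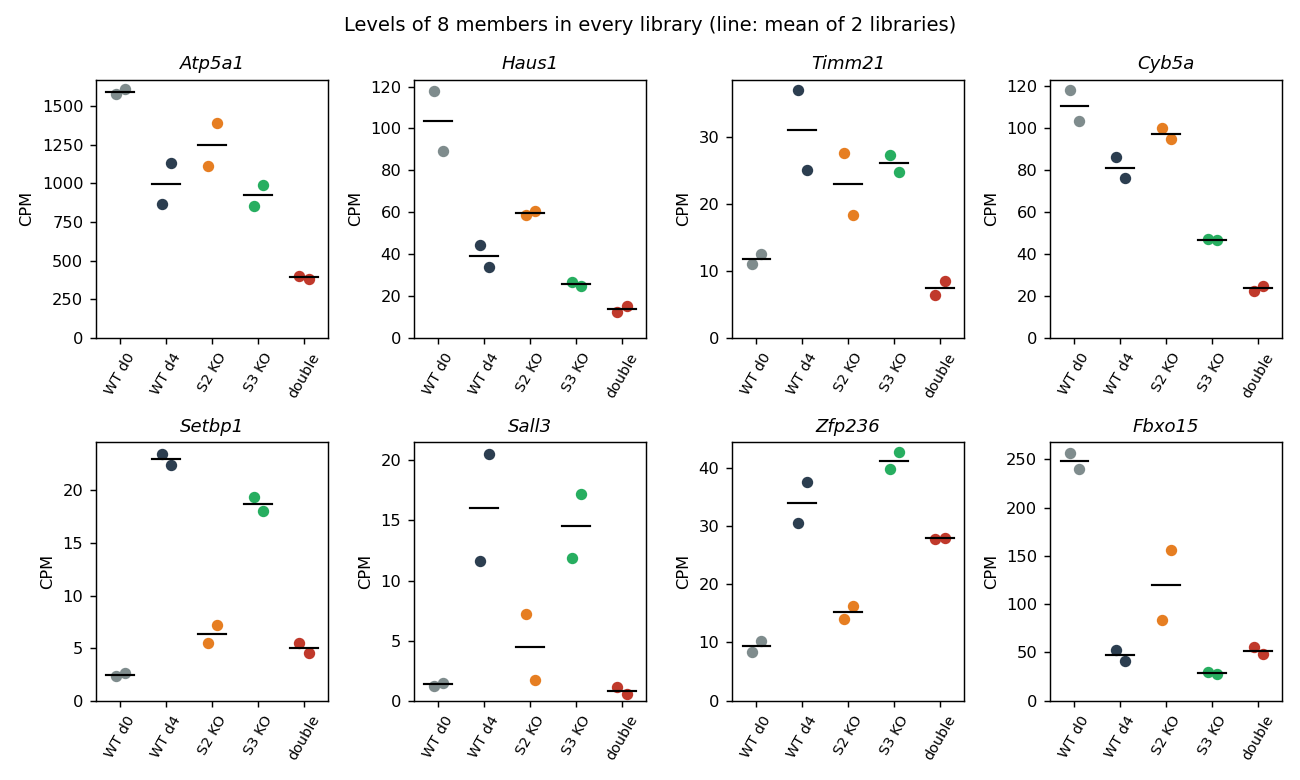
CPM (vertical axes from 0, a scale of its own for each gene) of 8 members in all 10 libraries, chosen after their values were seen to show the range of patterns; points are libraries and lines are means of 2 libraries. Atp5a1, Haus1, Timm21, Cyb5a and Sall3 are lowest in the double knockout, Setbp1 is low in the Smad2 knockout, the double knockout and stem cells, and Zfp236 and Fbxo15 keep double knockout levels above those of another day 4 group.

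The other 6 tested members were low throughout, between 0.0263 and 5.55 CPM. Cbln2, a synapse organiser, was below all other day 4 libraries in the double knockout, at 0.145 and 0.0928 CPM against 1.14 and 0.808 in WT (-2.99 ± 0.67). Nfatc1, a transcription factor switched on by calcium signals, stood at 2.03 and 1.51 CPM against 3.16 and 4.83 in WT (-1.17 ± 0.41). Zadh2, Tshz1 and St8sia5 overlapped with WT (-0.19 ± 0.38, 0.14 ± 0.48 and 0.08 ± 0.70). Cndp1, a dipeptidase that splits carnosine, was the single tested member with both double knockout libraries above both WT libraries (28.7% of all genes were), at 0.228 and 0.186 against 0.137 and 0.0713 CPM. The 6 members that did not pass the filter had few reads in the whole series. Loxhd1, a gene of inner ear hair cells, had 22 rounded counts over 10 libraries, the urea transporters Slc14a1 and Slc14a2 had 8 and 3, the synaptic gene Neto1 had 4, the adaptor Dok6 had 3 and the immune receptor Cd226 had 0. No level in any group is stated for these 6.

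Along chromosome 18 the double knockout differed in opposite directions on either side of Smad2. The 394 tested genes that start before Smad2 had a median log2 difference of 0.33 from WT, 0.56 from the Smad2 knockout and 0.46 from the Smad3 knockout. Of them, 69.0%, 70.6% and 70.8% were above 0 in those comparisons, beside 47.5%, 49.4% and 49.1% of all genes. In blocks of 2 Mb within 20 Mb of Smad2, counting those with at least 5 tested genes, the 8 blocks before Smad2 had medians of 0.24 to 0.71 against WT. The 5 blocks beyond Smad2 had medians of -1.78 to -0.29. A block of 4 genes, from 18 to 16 Mb before Smad2, had a median of -0.80. The blocks were laid out from Smad2, and the last block before it had a median of 0.63 and the first beyond it -1.32. Against the Smad3 knockout the ranges were 0.34 to 0.78 before and -1.46 to -0.68 beyond, and against the Smad2 knockout 0.41 to 1.04 and -1.62 to -0.10. Farther from Smad2, the 8 blocks of 10 Mb that cover all of the chromosome before it ranged from -0.07 to 0.66 against WT. Medians of the 19 other chromosomes ran from -0.17 to 0.05 against WT, from -0.10 to 0.09 against the Smad3 knockout and from -0.27 to 0.32 against the Smad2 knockout.

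**Figure D3:**
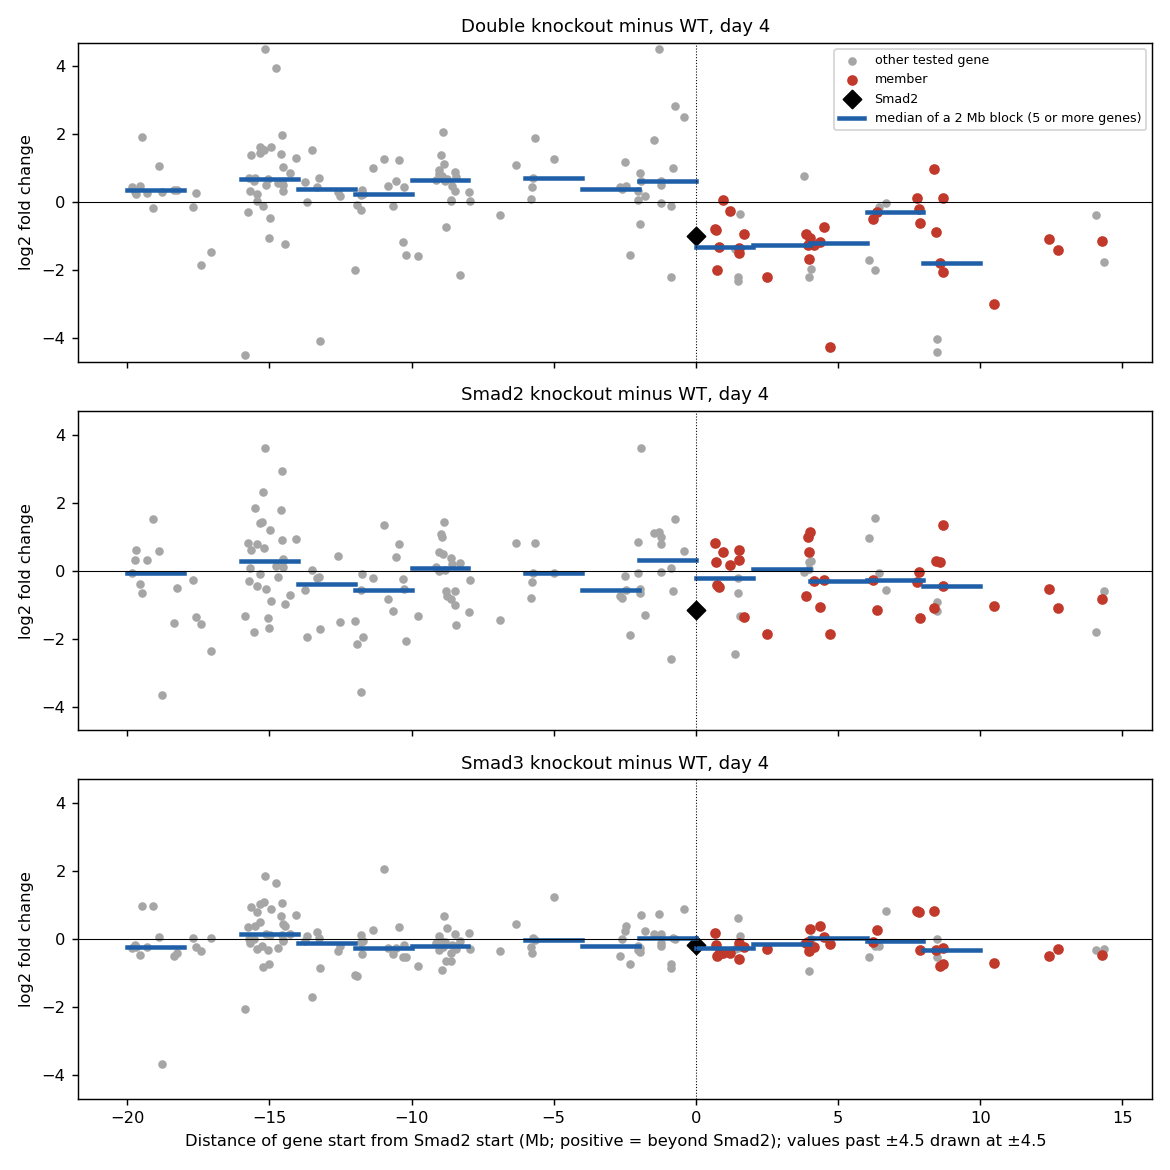
Log2 difference from WT at day 4 (vertical axis) of tested chromosome 18 genes by distance of their start from the start of Smad2 (horizontal axis, Mb) in the 3 knockout groups; red points are members, grey points other genes and blue bars medians of 2 Mb blocks with at least 5 tested genes. In the double knockout the bars lie between 0.24 and 0.71 before Smad2 and between -1.78 and -0.29 beyond it, while in the Smad3 knockout they lie between -0.25 and 0.15 before and between -0.33 and 0.03 beyond.

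At the edge itself, Smad2 was lower in the double knockout than in WT (-0.98 ± 0.18) and close to the Smad2 knockout (0.18 ± 0.18). Its mean was 22.4 CPM in the double knockout and 20.5 in the WT stem cells. The 5 nearest tested genes inside the stretch were Ier3ip1, Hdhd2, Katnal2, Pias2 and St8sia5, of which the first 4 stood between -1.99 and -0.77 from WT. The 5 nearest outside it were Zbtb7c (2.52 ± 0.34), Gm10532 (2.85 ± 0.49), Ctif (1.02 ± 0.29), Smad7 (-0.11 ± 0.22) and Gm20544 (-2.18 ± 0.55), so single genes at the edge scattered far more than the block medians. Zbtb7c, a zinc finger gene 0.42 Mb before Smad2, stood at 6.44 and 7.14 CPM in the double knockout and at no more than 2.29 in any other day 4 library. Ctif, a translation factor gene, stood at 15.5 and 14.3 CPM in the double knockout and at no more than 9.41 elsewhere at day 4.

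A further 16 genes beyond Smad2 that are outside the list were tested, 9 of them protein-coding. Their median log2 difference from WT was -1.73, and 11 of 16 were below -0.5 (26.3% of all genes). Against the Smad2 knockout it was -1.49, with 10 below -0.5 (33.0%) and 5 above 0 (49.4%). Against the Smad3 knockout it was -1.23, with 12 below -0.5 (24.3%) and 2 above 0 (49.1%). The levels of this stretch were already known, so nothing is read from these shares. Against the Smad2 knockout the 9 protein-coding ones had a median of -1.16, with 5 below -0.5 and 4 above 0. From WT their median was -1.38, with 6 below -0.5. The lowest values, -4.39 for Fam69c and -4.02 for D030046N08Rik, came from genes of 0.748 and 0.223 CPM in WT. Among genes with a WT day 4 mean of at least 5 CPM, Gm45871, 8030462N17Rik, Gm16286 and Eif3s6-ps2 stood at -1.75, -1.38, -1.18 and -0.36. Zfp516 and Pard6g, at that level too, stood at -0.02 and 0.76. Pard6g, a cell polarity gene picked out here after its values were seen, stood at 30.3 and 32.4 CPM in the double knockout against 17.4 and 19.5 in WT, and was higher there than in all 6 other day 4 libraries. Zfp516, also picked out afterwards, stood at 51.5 and 39.9 CPM against 36.2 and 56.3 in WT and 76.1 and 87.4 in the Smad3 knockout.

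The level was shared by both double knockout libraries. Relative to the WT mean at day 4, the median over the 32 tested members was -0.94 and -1.09 in log2 CPM in the 2 double knockout libraries. It was -0.22 and -0.24 in the Smad3 knockout, -0.29 and -0.44 in the Smad2 knockout and -0.45 and -0.65 in the WT stem cells. Genes before Smad2 gave 0.35 and 0.34 in the double knockout, -0.10 and -0.13 in the Smad3 knockout and -0.33 and -0.26 in the Smad2 knockout. At day 4 the members and the genes before Smad2 thus lay on opposite sides of WT in both double knockout libraries and on the same side in all 4 single knockout libraries.

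**Figure D4:**
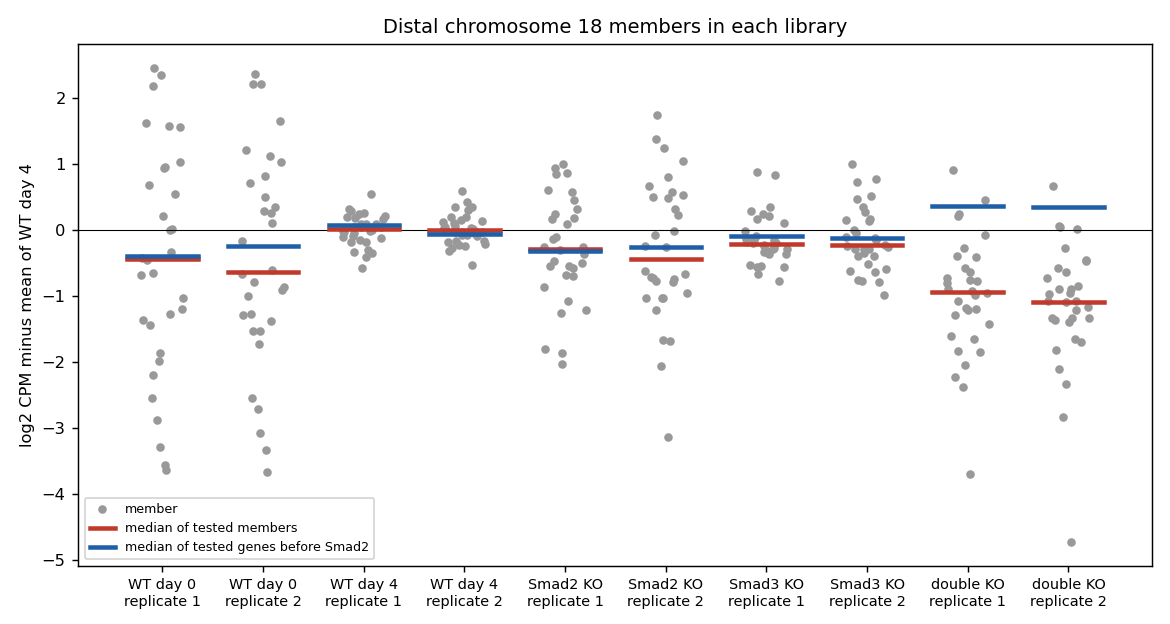
Log2 CPM of each tested member minus its WT day 4 mean (vertical axis) in each of the 10 libraries (horizontal axis); red bars are medians of the 32 tested members and blue bars medians of the 394 tested genes before Smad2. Red and blue bars part in both double knockout libraries, at -0.94 and -1.09 against 0.35 and 0.34.

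Gene length went with the comparison against the Smad2 knockout. The 16 shorter tested members had a median of -1.60 there and the 16 longer ones -0.26, whereas against WT the medians were -1.26 and -0.94 and against the Smad3 knockout -1 and -0.75. Across the 32 members the Spearman correlation between effective length and the difference from the Smad2 knockout was 0.67, and across all genes tested it was 0.44; genes of a library share its length trend and are not independent. With an offset for each library's trend on length, the members' median against the Smad2 knockout was -0.99 (quartiles -1.33 and -0.73), and 27 of 32 were below -0.5 in place of 17. On log2(TPM + 1), where the median of all genes moved to 0.65, the members' median was 0.09, which is -0.56 relative to all genes.

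The contrasts between the single knockouts and WT were not used to choose the members and were tested. The double knockout libraries entered these tests through the filter on low counts, the normalization and the shared estimate of spread. With the compared groups fitted alone, the 6 rises and 7 falls given next for the Smad2 knockout became 1 and 4. In the Smad2 knockout, 6 of the 32 tested members rose against WT (15.4% of all genes did) and 7 fell (20.1% of all genes). Ier3ip1 (0.82 ± 0.19, edgeR adjusted p = 0.0114), Fbxo15 (1.35 ± 0.27, adjusted p = 0.00605), Pqlc1 (1.14 ± 0.31), Rbfa (1.01 ± 0.33), Haus1 (0.62 ± 0.20) and Txnl4a (0.56 ± 0.18) rose. Setbp1 (-1.85 ± 0.22, adjusted p = 0.000945), Sall3 (-1.85 ± 0.60), Zfp407 (-1.40 ± 0.27), Epg5 (-1.38 ± 0.25), Zfp236 (-1.16 ± 0.19), Rttn (-1.10 ± 0.20) and Adnp2 (-0.75 ± 0.17) fell. The shorter members had a median of 0.31 and the longer ones -0.79. With the length offset 3 members rose (Fbxo15, Pqlc1 and Rnf165) and 0 fell, and Fbxo15 alone passed under every alternative tried. Leaving out single libraries, the 2 risers Fbxo15 and Ier3ip1 and the 5 genes Epg5, Rttn, Setbp1, Zfp236 and Zfp407 passed every time; the call on Adnp2 was lost without replicate 1 of the Smad2 knockout, and that on Pqlc1 without its replicate 2 or without the first WT library of day 4. Calls on Haus1, Rbfa, Txnl4a and Sall3 were lost without replicate 2 of the Smad2 knockout or any library of the Smad3 or double knockout. They were lost as well without replicate 1 of the Smad2 knockout (Haus1, Rbfa and Txnl4a), the first (Rbfa and Txnl4a) or the other (Haus1 and Sall3) WT library of day 4, and either WT library of day 0 (Rbfa and Sall3).

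In the Smad3 knockout 0 of the 32 members passed in either direction with edgeR's quasi-likelihood test, where 0.123% of all genes fell and 0.431% rose. At an unadjusted p under 0.05, 4 members were lower (Cyb5a, Fbxo15, Haus1 and Socs6; 9.31% of all genes) and 0 higher (7.86% of all genes), and DESeq2 called 1 lower, Cyb5a. Leaving out WT day 4 replicate 2 gave 3 calls, Cyb5a, Haus1 and Tmx3, all lower. Cyb5a had the lowest log2 difference of the 32, -0.79 ± 0.16 (edgeR adjusted p = 0.0633). The median of the 32 was -0.25, beside -0.04 over all genes.

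Between the single knockouts, 7 members were higher in the Smad2 knockout (15.7% of all genes) and 7 lower (17.9% of all genes). Cndp2, Cyb5a, Fbxo15, Haus1, Ier3ip1, Rbfa and Txnl4a were the higher ones, led by Fbxo15 (2.08, edgeR adjusted p = 0.00186) and Haus1 (1.21, adjusted p = 0.00377). Adnp2, Epg5, Nfatc1, Rttn, Setbp1, Zfp236 and Zfp407 were the lower ones, led by Setbp1 (-1.56, edgeR adjusted p = 0.00214). With the length offset 2 were higher, Fbxo15 and Rnf165, and 0 lower. Calls on Cyb5a, Fbxo15, Haus1, Setbp1 and Zfp236 held when any 1 library was left out, and the other 9 were lost without replicate 1 of the Smad3 knockout and, except Epg5, without its replicate 2. Adnp2, Ier3ip1, Rbfa, Rttn and Zfp407 were lost too without replicate 1 of the Smad2 knockout, and Cndp2, Ier3ip1, Nfatc1 and Rbfa without its replicate 2. Cndp2 and Rbfa were lost without any WT day 0 or double knockout library.

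The change from stem cells to embryoid bodies in WT moved most members, in both directions. From day 0 to day 4, 15 of 32 rose (28.9% of all genes did) and 10 fell (23.2% of all genes). Gene length went with this comparison too, with medians of -0.71 in the 16 shorter members and 1.38 in the 16 longer ones. With the length offset 10 members rose, Cyb5a among them, and 9 fell, Adnp2 and Pias2 among the latter. Setbp1 went from 2.30 and 2.66 CPM to 23.5 and 22.4 (3.21 ± 0.24, edgeR adjusted p = 3.3e-05). Sall3 went from 1.25 and 1.47 CPM to 11.6 and 20.5 (3.55 ± 0.66), and Mbp from 2.69 in both libraries to 15.0 and 17.0 (2.57 ± 0.22). The 3 were the steepest risers among members of at least 5 CPM. Zfp236 (1.87), Zfp407 (1.71), Tmx3 (1.42), Timm21 (1.39), Epg5 (1.33), Socs6 (1.06), Rttn (0.97), Katnal2 (0.72) and Atp9b (0.69) rose by less. The low genes Nfatc1 (3.89 ± 0.49), Cbln2 (3.28 ± 0.71) and Tshz1 (1.99 ± 0.55) rose from levels of at most 0.316 CPM.

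Among those that fell, Fbxo15 went from 256 and 240 CPM to 52.9 and 41.4 (-2.40 ± 0.28, edgeR adjusted p = 0.00021). Rbfa went from 76.9 and 70.0 CPM to 10.2 and 22.7 (-2.16 ± 0.34), Pqlc1 from 9.98 and 10.2 to 1.69 and 2.76 (-2.18 ± 0.32), and Haus1 from 118 and 89.2 to 44.2 and 33.8 (-1.41 ± 0.21). Atp5a1 went from 1580 and 1610 CPM to 867 and 1130 (-0.68 ± 0.20). Txnl4a (-1.36), Rnf165 (-1.02), Cndp2 (-0.86), Ier3ip1 (-0.74) and Cyb5a (-0.45) fell as well. Katnal2 and Tshz1 among the risers, and Atp5a1, Cyb5a, Ier3ip1 and Rnf165 among those that fell, lost the call without WT day 0 replicate 1, and Katnal2, Atp5a1, Cyb5a and Rnf165 also without WT day 0 replicate 2. Katnal2 and Cyb5a lost it without WT day 4 replicate 2, and Katnal2 and Rnf165 without WT day 4 replicate 1. Katnal2 and Cyb5a lost it also without any library of the Smad3 or double knockout. On log2(TPM + 1), Cyb5a was higher at day 4 (0.47), and with the length offset it was called higher at day 4. At day 0 the remaining members stood at 161 and 170 CPM for Pias2, 55.7 and 66.6 for Adnp2, 46.0 and 54.7 for Ctdp1 and 20.4 and 21.7 for Hdhd2, and the test without the length offset did not call them.

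Timm21 and Haus1, picked out here after their values were seen, were both low in the double knockout and took opposite courses in WT. The part of the course in WT in the double knockout levels was not tested. Timm21 rose with differentiation and its double knockout level, 6.46 and 8.54 CPM, was under the 11.1 and 12.5 CPM of the stem cells. Haus1 fell with differentiation, and its double knockout level lay under both the stem cells and the embryoid bodies of WT. The call on the fall of Haus1 was lost with the length offset, while the rise of Timm21 was called under every alternative tried.

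Atp5a1, Haus1, Timm21 and Txnl4a work in complexes whose other subunits lie outside the stretch. Their 41 tested partners were taken from lists chosen with these data known. The partners' median log2 difference from WT was -0.19, with 5 below -0.5 (26.3% of all genes). Of these 5, 4 were among the 10 tested partners of Txnl4a. Against the Smad3 knockout the partners' median was 0.04, with 0 below -0.5 (24.3% of all genes). Atp5b, the beta subunit beside Atp5a1, stood at 1370 ± 89 CPM in WT and 1120 ± 9.4 in the double knockout (-0.29 ± 0.17), and Atp5c1 at 272 ± 29 and 275 ± 14 (SD, n = 2). Haus6 (-0.19 ± 0.24), Haus3 (-0.12 ± 0.21), Timm23 (0.19 ± 0.32), Prpf8 (-0.25 ± 0.22) and Snrnp200 (-0.16 ± 0.22) were likewise within 0.3 of WT. Hspa9, the import motor of the TIM23 complex, lies on chromosome 18 before Smad2 and stood at 0.38 ± 0.19. Against the Smad2 knockout the partners' median was -0.74, with 29 below -0.5 (33.0% of all genes), beside a median of -0.70 for all 32 tested members. In that comparison Atp5a1 stood at -1.67 and its partners at a median of -1.21, and Haus1 at -2.11 and its partners at -0.10. Timm21 stood at -1.62 and its partners at -0.95, and Txnl4a at -2.22 and its partners at -0.42. From WT, Atp5a1 stood at -1.35 and its ATP synthase partners at a median of -0.23, Haus1 at -1.49 and its partners at -0.12, Timm21 at -2.05 and its partners at 0.07, and Txnl4a at -1.66 and its partners at -0.33. These differences between members and partners carry no test.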

How the data were processed

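RNA was measured in 10 libraries of 5 groups, and the 14 other samples of the series were not used here. Per the file headers, the authors deposited RSEM gene tables with expected counts (12.2% to 14.6% of values not whole), TPM and effective lengths. RSEM, STAR, Bowtie2, HOMER, FastQC 0.11.5 and the build mm10 appear, with no role or order, in the submitters' processing notes. No source used here gives the annotation version. Gene IDs were placed with GENCODE M21 (50604 matched with version, 2670 without, 105 unmatched). Expected counts were rounded. All 5 groups were fitted at once with edgeR 4.0.16 in R 4.3.3 (TMM, filterByExpr, quasi-likelihood F test, 19470 genes, 5 residual degrees of freedom), and p-values were adjusted by Benjamini-Hochberg over all genes and called under 0.05. CPM uses TMM library sizes. SE is the log2 difference divided by the root of F. Library medians use a prior count of 2. The script was tested on simulated data.

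Members and gene lists were chosen with earlier results of these data known. All 38 members are accounted for: tested members with a mean of at least 5 CPM in WT at day 4 or day 0 by library, lower ones in brief, untested ones by total count; with Smad2, the 5 nearest tested genes on each side, and the 2 highest partner genes of each complex. DESeq2 1.42.0 and limma 3.58.1 on log2(TPM + 1) and log2(TPM + 0.1) were among the alternatives. No gene sequence was used here. Counting error is small at these depths except for members of a few counts.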

Additional observations from a re-analysis of the deposited data

How the results depend on the processing

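The members' median against WT, -1.07, stayed between -1.14 and -0.87 when single libraries were left out. It was -0.96 with library totals, -0.95 with no filter, -0.92 with the file-name series as a block, -0.72 on log2(TPM + 1) and -0.75 on log2(TPM + 0.1). Against the Smad3 knockout (-0.89) it ranged from -0.92 to -0.80 and was -0.76 on log2(TPM + 1). Against the Smad2 knockout (-0.70) it ranged from -0.95 to -0.62, and was -0.40 with library totals, -0.85 at 10 CPM or more in 2 libraries and -0.99 with the length offset; it reversed to 0.09 on both TPM scales, where all genes moved up to 0.65 and 0.76. Genes before Smad2 stayed above 0. Against WT (0.33) they ranged from 0.28 to 0.46 without single libraries and were 0.44 with library totals and 0.54 and 0.57 on the TPM scales. Against the Smad2 knockout (0.56) they ranged from 0.55 to 0.68 and were 0.86 with library totals, 0.65 at 10 CPM, 0.63 with the series block, 1.25 and 1.38 on the TPM scales and 0.47 with the length offset. Against the Smad3 knockout (0.46) they ranged from 0.44 to 0.48 and were 0.42 with library totals, 0.41 with no filter, 0.49 at 10 CPM, 0.48 with the series block, 0.57 and 0.60 on the TPM scales and 0.49 with the length offset.

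Calls among members moved more. In the Smad2 knockout against WT, 2 to 5 rose and 6 to 9 fell without single libraries; 3 rose and 11 fell with library totals, 1 and 4 with the compared groups alone, 1 and 16 on either TPM scale, and 3 and 0 with the length offset. In the Smad3 knockout 0 rose and 0 to 3 fell without single libraries, 2 fell with no filter, and 1 fell with the series block and with DESeq2. Between the single knockouts 3 to 10 were higher and 2 to 8 lower without single libraries; 4 and 11 with library totals, 1 and 15 on either TPM scale, and 2 and 0 with the length offset. From day 0 to day 4, 13 to 15 rose and 6 to 11 fell without single libraries; 6 fell with library totals and 4 on either TPM scale. The cause of these shifts was not tested.

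Single members that reversed, none of them called then except Cyb5a, did so on the TPM scales or with the length offset. Against WT in the Smad2 knockout these were Haus1 (-0.06 on both TPM scales, -0.05 with the offset), Txnl4a (-0.53 and -0.54 on TPM) and Adnp2 (0.01 with the offset). Between the single knockouts they were Ier3ip1 (-0.52 and -0.53), Txnl4a (-0.24 and -0.25) and Cndp2 (-0.17 and -0.18) on TPM, and Adnp2 (0.11) and Rttn (0.18) with the offset. From day 0 to day 4 they were Atp5a1 (0.04 on both) and Cyb5a (0.47 on both, 0.58 with the offset), and with the offset Ier3ip1 (0.07), Epg5 (-0.18) and Rttn (-0.37).

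Replicate numbers are shared across groups, but same-numbered libraries deviated together only outside the double knockout (correlations 0.113 to 0.51), not with it (-0.18 to -0.035), so the numbers do not pair all samples. With the replicate block the members' medians were -1.05, -0.70 and -0.89 against WT, the Smad2 and the Smad3 knockout, and genes before Smad2 0.34, 0.60 and 0.47. The block gave 6 higher and 8 lower in the Smad2 knockout, 0 and 0 in the Smad3 knockout, 8 and 7 between them, and 15 and 10 over time.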
